A study of Arabidopsis thaliana with 8 samples.

Results

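AT5G65360 and AT1G13370, which both encode the chromatin protein histone H3, and the cell cycle gene FBL17 were followed in Arabidopsis thaliana, the thale cress, at 2 ages. The members were the rows of the array table whose platform annotation names exactly 1 gene and in which that gene is AT5G65360, AT1G13370 or FBL17. Each of the 3 genes had 1 such row, among 692 rows that name 1 gene and 3439 rows in all. All plants were wild type of ecotype Columbia 0, a standard laboratory accession, and the groups were 1 week old and 4 weeks old plants with 4 samples of total RNA each. The labels name no treatment and do not say which organs were taken, under what light the plants grew, or whether separate plants gave the samples of one age. The p-values below therefore reflect the spread among these arrays alone, and that spread may be technical.

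Histone H3 is one of the proteins around which DNA is wrapped into nucleosomes, and a cell that copies its DNA must make enough histone for the second copy. In plants the H3.1 form is put in place mainly during DNA replication, while the H3.3 form is exchanged outside of it, so transcripts of H3.1 genes are commonly read as a mark of cells in S phase. AT5G65360 (HTR1) is one of several H3.1 genes, which encode the same protein from near-identical coding sequences, and AT1G13370 (HTR6) is a variant copy outside the H3.1 group. FBL17 (AT3G54650) encodes an F-box protein, the part of an SCF ubiquitin ligase that picks its substrate. It marks inhibitors of the cyclin-dependent kinase CDKA, the KRP proteins, for degradation and so lets cells enter DNA replication, and it is best known from the division that makes the 2 sperm cells of pollen.

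The 3 genes did not move together between the ages. AT5G65360 was 1.98-fold higher at 4 weeks than at 1 week, FBL17 was 1.73-fold lower, and the difference of AT1G13370 depended on how the arrays were scaled. In the fit of all rows by limma, on log2 values quantile normalized between arrays, 1 of the 3 members was higher at 4 weeks and 1 was lower at an adjusted p under 0.05. Among all 2924 tested rows 25.3% were called higher and 20.4% lower, 45.7% in all, so calls of this kind were common on the array. As total RNA of plant material was measured, a change in the number of cells that express a gene and a change in RNA per cell cannot be told apart.

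The deposited signal of AT5G65360, in arbitrary units, was 0.415, 0.476, 0.448 and 0.465 in samples 1 to 4 of 1-week-old plants. It was 0.820, 0.936, 0.876 and 0.994 in samples 1 to 4 of 4-week-old plants. All samples of the older plants lay above all samples of the younger ones, and the coefficient of variation was 5.87% at 1 week and 8.25% at 4 weeks. The means were 0.451 ± 0.0265 and 0.907 ± 0.0748 (SD, n = 4 per age), and the normalized log2 difference was 0.98 (SE 0.10, limma adjusted p = 0.000161). Groups without overlap as deposited, with the older plants higher, were found in 27.5% of tested rows. Between samples of the same number, the older plants had 1.98, 1.97, 1.95 and 2.14 times the signal of the younger plants, so the ratio was much the same in each pair of samples. Of all tested rows, 11.4% rose by as much or more.

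The signal of FBL17 was 0.389, 0.282, 0.545 and 0.578 in samples 1 to 4 of 1-week-old plants. At 4 weeks it was 0.205, 0.231, 0.295 and 0.339. The ages overlapped, since sample 2 of the younger plants lay below samples 3 and 4 of the older plants. The means were 0.448 ± 0.138 and 0.268 ± 0.0609 (SD, n = 4 per age), and on normalized values it fell by 0.79 in log2 (SE 0.24, limma adjusted p = 0.0295). In every pair of samples of the same number the older plants were lower, with ratios of 0.528, 0.819, 0.542 and 0.587. A fall of this size or more was measured in 16.4% of tested rows.

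The call of FBL17 was less firm than that of AT5G65360. On the values as deposited its log2 difference was −0.71 (SE 0.26, limma adjusted p = 0.0536), which missed the threshold of 0.05. It also missed the threshold without sample 3 or 4 of the younger plants (0.0717 and 0.0693) and without sample 1 or 2 of the older plants (0.0744 and 0.0694), with log2 differences from −0.75 to −0.67. The exact two-sided permutation test of the single gene gave p = 0.0571, against 0.0286 for AT5G65360, which is the smallest p that 70 assignments allow.

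AT1G13370 had signals of 11.5, 11.0, 12.4 and 12.2 in samples 1 to 4 of 1-week-old plants. In 4-week-old plants its signals were 6.96, 6.85, 7.97 and 9.11. As deposited, every sample of the older plants was below every sample of the younger ones, a pattern that 19.2% of tested rows showed in this direction. The means were 11.8 ± 0.616 and 7.72 ± 1.05 (SD, n = 4 per age). Older minus younger, this was −0.62 in log2 terms (SE 0.13, limma adjusted p = 0.00474), or 1.53-fold lower at 4 weeks. On this scale 20% of all tested rows were called lower.

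After quantile normalization the difference of AT1G13370 shrank to −0.13 (SE 0.15, limma adjusted p = 0.486) and the ages overlapped. The normalized log2 values were 3.23, 3.19, 3.35 and 3.32 at 1 week and 2.93, 2.89, 3.26 and 3.47 at 4 weeks, so that sample 4 of the older plants became the highest of all 8. With only the median of each array made equal, the difference was −0.67 (SE 0.11, limma adjusted p = 0.00188), and 21.4% of tested rows were called lower on that scale. The scaling moved the log2 difference of AT5G65360 between 0.95 and 1.01 and that of FBL17 between −0.79 and −0.71.

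**Figure D1:**
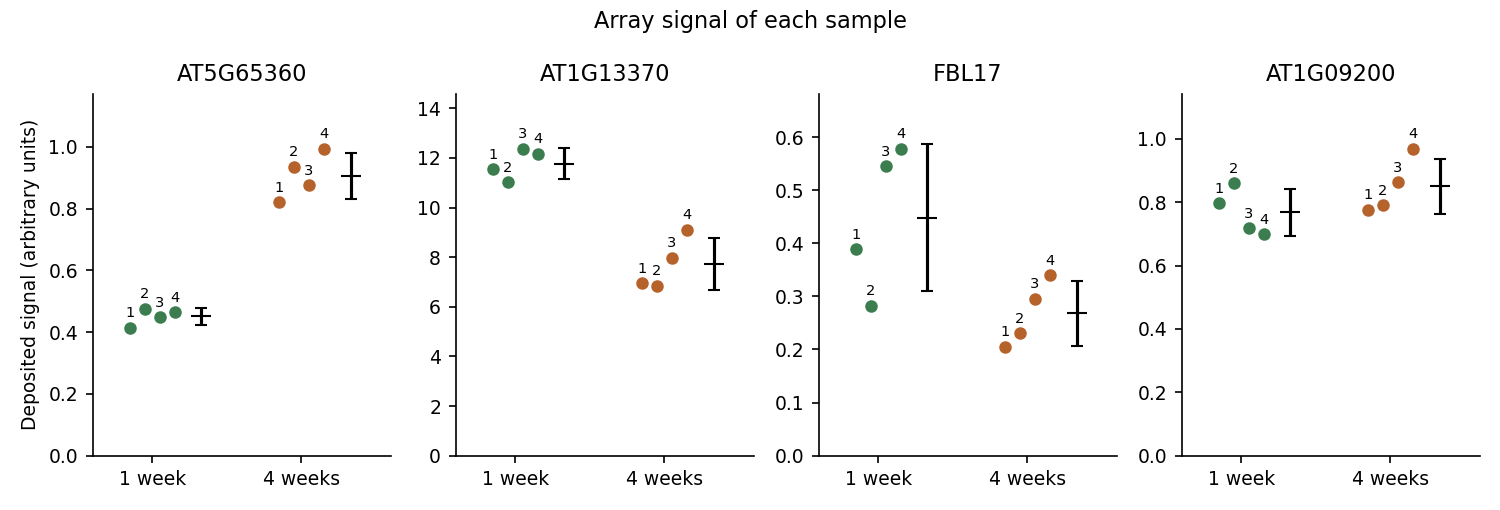
Deposited array signal (arbitrary units, linear axes from 0) of the 3 genes and of AT1G09200, another histone H3 gene, at 1 week (green) and 4 weeks (orange). Points are samples with their number, and bars to the right give the mean ± SD of 4 samples. AT5G65360 lies higher and AT1G13370 lower at 4 weeks without overlap, while the ages overlap for FBL17 and AT1G09200.

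AT1G13370 was a bright row, in the highest of 20 bins of rows by mean signal. For the 50 tested rows nearest to it in mean log2 signal, with geometric mean signals between 4.11 and 20.5, the median log2 difference was −0.31 as deposited and −0.12 after normalization. As deposited, 31 of these 50 rows were lower at 4 weeks and 20 of them fell further than AT1G13370. The 50 rows nearest to AT5G65360 had a median log2 difference of 0.10 as deposited and 0.09 normalized, and 49 of them lay below AT5G65360. The 50 rows nearest to FBL17 had a median of 0.52 as deposited and 0.42 normalized, and 5 of them lay below FBL17. Both of these genes thus stood toward the edge of rows of like signal in their own direction, whereas AT1G13370 lay within the bulk of its bright neighbours. The comparison with rows of like signal was added after seeing the data.

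**Figure D2:**
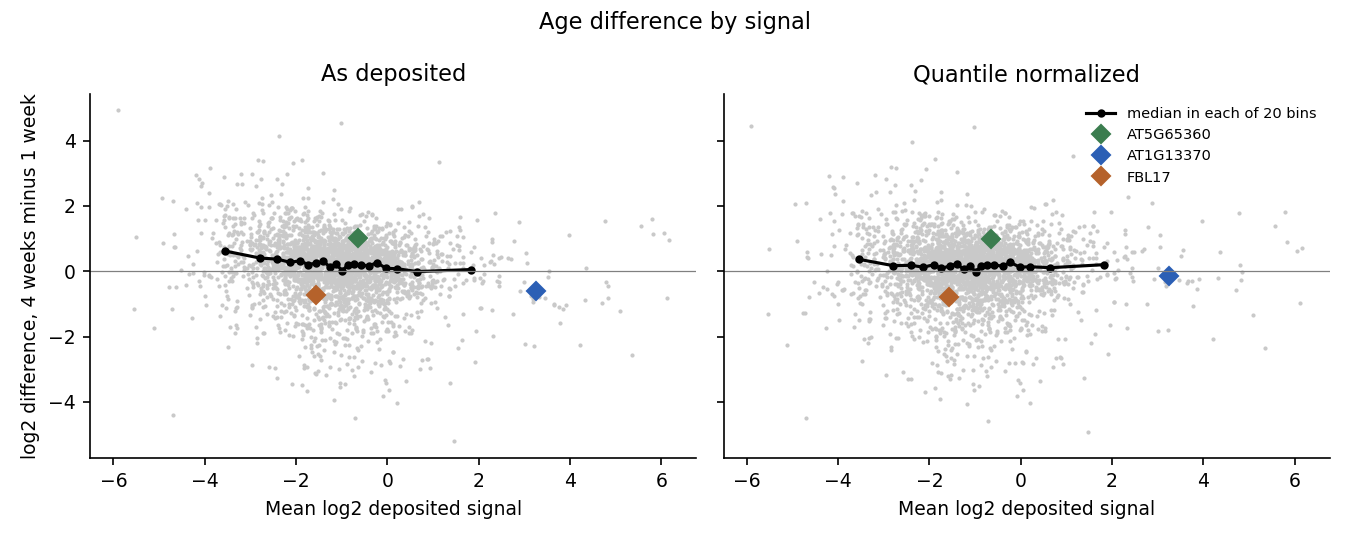
Log2 difference between the ages (4 weeks minus 1 week) against the mean log2 deposited signal for 2924 tested rows (grey), as deposited on the left and quantile normalized on the right. The black line joins the medians of 20 bins of rows, and diamonds mark the 3 genes. AT1G13370 moves from −0.62 to −0.13 between the panels, while AT5G65360 and FBL17 stay near 1.01 and 0.98, and near −0.71 and −0.79.

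Whether the genes changed by different amounts was tested on the log2 ratio of 2 rows within each sample. In it a constant brightness of each row cancels between the ages. A shift between the ages that differs between bright and dim rows does not cancel. There were 3 pairs, tested by exact two-sided permutation of the samples and adjusted over the 3. The change of AT5G65360 exceeded that of FBL17 by 1.78 on the log2 scale (exact p = 0.0286, adjusted 0.0286) and that of AT1G13370 by 1.12 (exact p = 0.0286, adjusted 0.0286), and neither ratio overlapped between the ages. How often this holds for other pairs of rows was not counted. Of 2814 rows tested singly by exact permutation, 1285 reached the smallest p, so such separation was common on the array. On the values as deposited, AT5G65360 exceeded FBL17 by 1.72 and AT1G13370 by 1.62 (exact permutation, adjusted p = 0.0429 for both). AT1G13370 and FBL17 differed by 0.66 after normalization (exact p = 0.0286, adjusted 0.0286) but by 0.10 as deposited (exact p = 0.657, adjusted 0.657). In a comparison of same-numbered samples by an exact sign-flip test, each of the 3 pairs of genes had p = 0.125, the smallest that 4 pairs of samples allow, so that paired test could not pass the threshold. By permutation of the samples, the 2 histone H3 genes differed in how they changed with age under both scalings, and whether AT1G13370 differed from FBL17 depended on the scaling.

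Another H3 gene, AT1G09200 (HTR2), also has a row of its own. It belongs to the H3.1 group like AT5G65360. Its signal was 0.797, 0.861, 0.718 and 0.700 in samples 1 to 4 of 1-week-old plants and 0.777, 0.791, 0.864 and 0.969 in samples 1 to 4 of 4-week-old plants. The ages overlapped, and the normalized log2 difference was 0.14 (SE 0.13, limma adjusted p = 0.393). The change of AT5G65360 exceeded that of AT1G09200 by 0.84 on the log2 scale (exact permutation p = 0.0286, adjusted over 5 pairs 0.0357), and by 0.86 as deposited. The log2 ratio of AT5G65360 to AT1G09200 averaged −0.75 ± 0.19 in the younger and 0.09 ± 0.10 in the older plants (SD, n = 4 per age). AT1G13370 and AT1G09200 differed by −0.27 (exact permutation p = 0.143, adjusted 0.143), and by −0.76 as deposited (exact permutation p = 0.0286, adjusted 0.0357). These 2 pairs were added after the values had been seen.

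Of 14 H3 genes on the list used here, 3 had a row of their own, and of these 1 was called higher at 4 weeks and none lower. Among all tested rows 25.3% were called higher and 20.4% lower, so a count from 3 rows shows nothing particular to H3 genes. The median normalized log2 difference of the 3 was 0.14, the value of AT1G09200, against 0.16 over all tested rows. A further 4 rows are annotated to 2 or 3 genes that are all on the H3 list, and their signal belongs to no single gene. A row of 2 H3.1 genes averaged 0.598 ± 0.0725 in the younger and 0.315 ± 0.138 in the older plants (SD, n = 4 per age). As deposited the ages overlapped, since sample 4 of the older plants (0.496) lay above sample 3 of the younger plants (0.493), but not after normalization. The row fell by 1.10 on the normalized log2 scale (SE 0.30, limma adjusted p = 0.0188), though in samples 3 and 4 alone it did not pass (−1.02, limma adjusted p = 0.192). The rows annotated to H3.1 genes thus gave a rise, a fall and a difference that did not pass the test.

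Another row, of 2 H3.3 genes, rose by 0.45 (SE 0.15, limma adjusted p = 0.0345). This call was lost without sample 1 or 3 of the younger plants (limma adjusted p = 0.0572 and 0.0585) or sample 1, 2 or 4 of the older plants (0.0590, 0.0872 and 0.0718). It was also lost in samples 1 and 2 alone (0.0994), in samples 3 and 4 alone (0.109), and with these averaged, without and with the pairs as a block (0.221 and 0.139). A row that lists the same 2 genes and another H3 gene differed by 0.02 in log2 (SE 0.12, limma adjusted p = 0.880), and by −0.03 after median centring. The row of the centromeric and the male gamete form of H3 rose by 0.42 (SE 0.10, limma adjusted p = 0.0117), a call lost with samples 1 and 2, and 3 and 4, averaged (0.238), in that averaged fit with the pairs of samples as a block (0.162), and in samples 1 and 2 alone (0.0915). The H3.1 genes are near-identical copies, and no probe sequence was at hand to tell how far each H3 row is specific. Cross-hybridization among the H3 genes was therefore not tested, and the values of single H3 genes are uncertain to that extent. The nearest protein-coding gene before AT5G65360 in the reference gene table of assembly TAIR10.1 is AT5G65350 (HTR11), itself on the H3 list and without a row of its own.

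**Figure D3:**
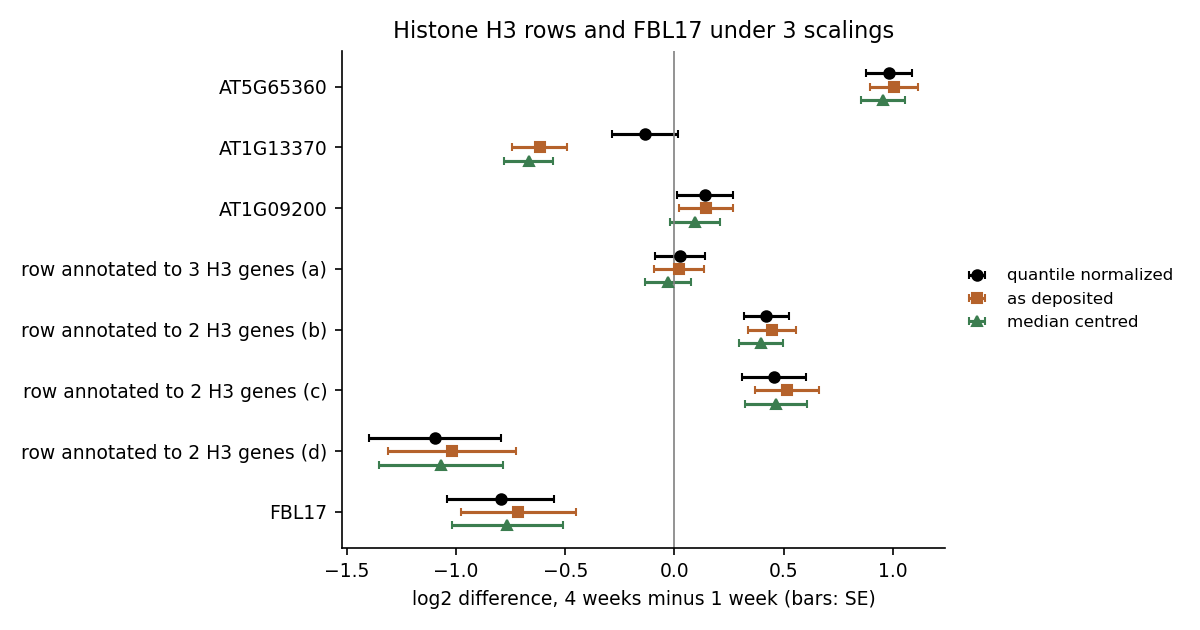
Log2 difference, 4 weeks minus 1 week, of each histone H3 row and of FBL17 under 3 scalings of the arrays (circles quantile normalized, squares as deposited, triangles median centred), with bars for the SE from limma. Rows a and c list H3.3 genes, row b the centromeric and male gamete forms, and row d 2 H3.1 genes. The scaling moves AT1G13370 from −0.13 to −0.67 and moves no other row of the plot by as much.

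Other genes of cell division on the lists used here could hardly be read from this array. The 7 KRP genes, the targets of FBL17, had no row that names 1 gene, and neither did 15 genes for cell cycle kinases, cyclins and the E2F and RBR1 regulators, 14 genes of DNA replication, 2 of chromatin assembly or the 4 core subunits of SCF ligases. Of 11 genes for the division and DNA of organelles, 1 had such a row. This was AT4G31210, for a type IA DNA topoisomerase, with means of 0.135 ± 0.0831 in the younger and 0.437 ± 0.124 in the older plants (SD, n = 4 per age), higher by 1.78 in log2 (SE 0.51, limma adjusted p = 0.0229). It missed the threshold without sample 1 or 3 of the older plants (limma adjusted p = 0.0596 and 0.0516), and with samples 1 and 2, and 3 and 4, averaged (0.105). A search of gene names for chromatin added chr31, a chromatin remodelling gene, with −0.11 (SE 0.13, limma adjusted p = 0.496). Searches for histones, cell cycle, DNA replication and repair, and F-box or ubiquitin ligase genes by name added none. These searches read only gene symbols and synonyms, and they also missed FBL17 and the 3 H3 genes with a row of their own. They therefore cannot tell whether the array holds further genes of cell division. The 5 lists of root, flower, seed, senescence and shoot meristem markers had 0 single-gene rows, so the share of dividing organs in each age could not be checked.

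Genes with a pattern like each member were found by the root mean square difference of quantile normalized log2 profiles. Each profile was centred on its mean over the 8 samples, and the search covered the 563 other named genes measured in all samples. It was not repeated on the values as deposited, where the log2 difference of AT1G13370 was −0.62 and not −0.13. The pattern of AT5G65360 was nearest to those of PRK, for phosphoribulokinase of the Calvin cycle (0.124), AT4G22190 (0.126) and AT1G02260 (0.148), where the median over all genes was 0.548. FBL17 was nearest to AT3G19370 (0.0839), AT1G50000 (0.179) and AT3G21810 (0.199), against a median of 0.664. AT1G13370 was nearest to AT4G24930 (0.0848), AT4G19900 (0.0941) and GLDH, for the last enzyme of ascorbate synthesis (0.0972), against a median of 0.451. The nearest profile to FBL17, that of AT3G19370, had means of 0.492 ± 0.162 in the younger and 0.274 ± 0.0581 in the older plants (SD, n = 4 per age) and a normalized difference in log2 of −0.87.

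**Figure D4:**
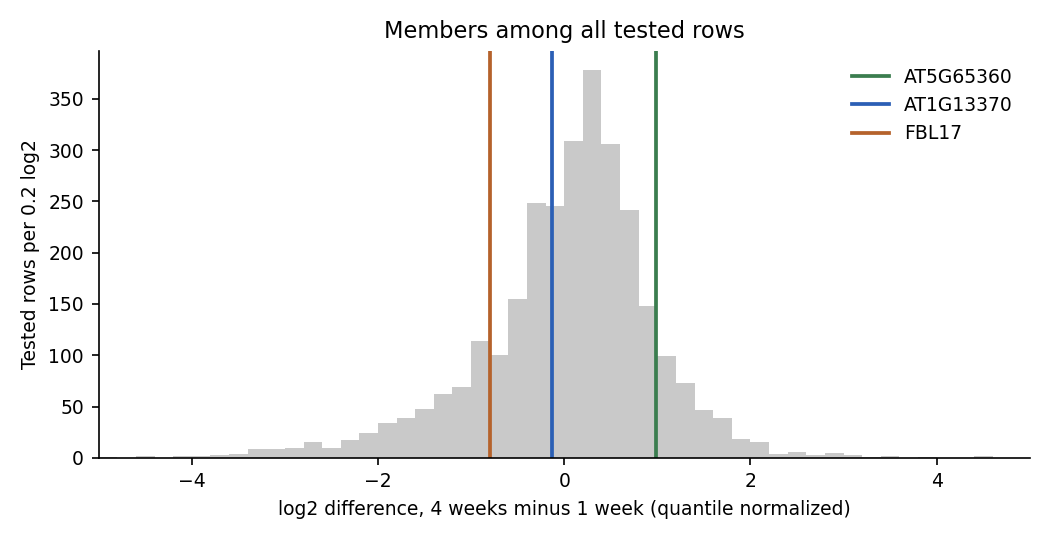
Histogram of the normalized log2 difference, 4 weeks minus 1 week, over 2924 tested rows in bins of 0.2, with vertical lines at the 3 genes. AT5G65360 at 0.98 and FBL17 at −0.79 lie on opposite sides of the median of 0.16, and AT1G13370 at −0.13 lies near the middle.

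Across the array, deviations from the age mean were correlated between samples 1 and 2 of the 2 ages (0.180 to 0.527). They were also correlated between samples 3 and 4 of the 2 ages (0.343 to 0.433). Likeness of samples within an age was not tested. With samples 1 and 2 only, the log2 difference of AT5G65360 was 0.97, and with samples 3 and 4 only it was 1.00. That of FBL17 was −0.67 and −0.92, and that of AT1G13370 was −0.30 and 0.03. A limma test of the difference between these effects gave adjusted p values of 0.940, 0.621 and 0.289. FBL17 was higher in samples 3 and 4 than in samples 1 and 2 at both ages. When samples 1 and 2, and samples 3 and 4, of an age were averaged to 1 value each, AT5G65360 still passed (limma adjusted p = 0.0460), with 4.96% of tested rows called higher, and FBL17 did not (0.190). With these pairs of samples as a block in the averaged fit, the adjusted p was 0.0132 for AT5G65360 and 0.0284 for FBL17, where 18.8% of tested rows were called higher and 17.4% lower.

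**Figure D5:**
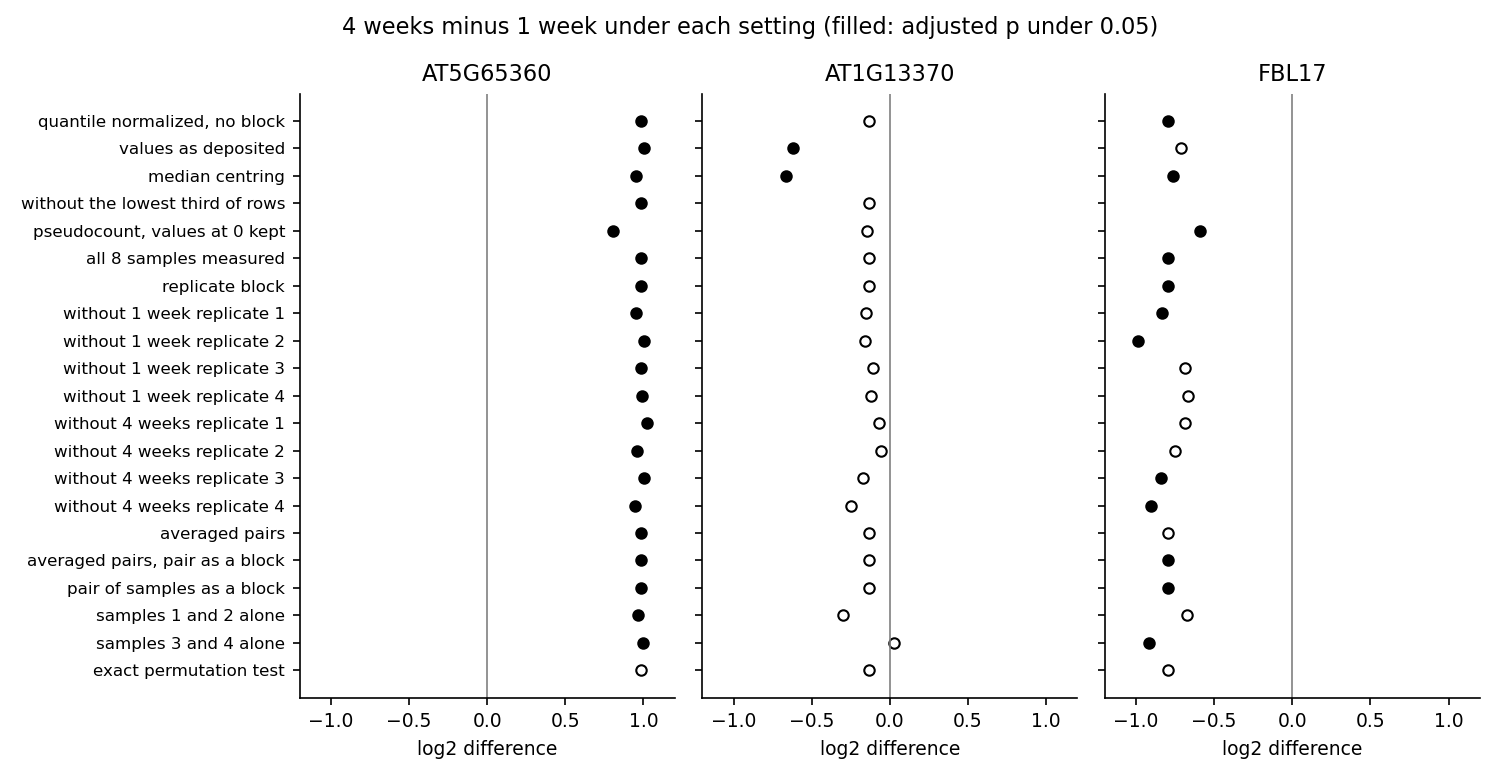
Log2 difference, 4 weeks minus 1 week, of the 3 genes under each setting of the analysis (rows of points), with filled points where the adjusted p was under 0.05 and open points otherwise. AT5G65360 stays between 0.80 and 1.02, FBL17 between −0.99 and −0.59, and AT1G13370 between −0.67 and 0.03.

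Array signals of a sample summed to between 3070 and 3374, and each sample listed 11.3% to 13.6% of its rows at 0. No value of the 3 genes or of the H3 rows was at 0 or at the ceiling of the table, 100. The number of arrays limits the precision. In simulated data of 2924 rows with the spread of these samples, 200 rows were changed. The fit recovered 65% of rows changed by 1 on the log2 scale and 8% of rows changed by 0.5. In the data 45.7% of rows were called, a larger share than was changed in the simulation, so these rates may not hold for the data. Smaller changes, such as that of AT1G13370 after normalization, were not simulated.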

How the data were processed

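The authors deposited 1 intensity per row and sample, linear by its values. Their scanning and scaling are steps not given in the sources used here. Rows were named with the GEO platform annotation, updated by gene number through a RefSeq gene table (TAIR10.1), which held 690 of the 692 single-gene rows. Another 870 rows name several genes and 1877 are unnamed here. Coordinates are left out because no source names the build behind the array.

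Signals were log2-transformed, and those of 0 were treated as missing. Array medians differed by 0.13, above a limit of 0.1, so arrays were quantile normalized. Rows with 3 measured samples per age were fitted with limma 3.58.1 in R 4.3.3 (lmFit, eBayes, Benjamini-Hochberg over 2924 rows, threshold 0.05), leaving out 2 rows at the ceiling in all samples. Folds are from this fit, except that of AT1G13370, which is from the fit on the values as deposited. Means ± SD are of the deposited values. The code was tested on simulated data.

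The genes and lists were chosen with earlier results of these data known. Named were the 3 members, single-gene rows on the lists or found by name, and the 3 nearest profiles to each member. Rows of several H3 genes were added after seeing the data. Samples sharing a number deviated together from their age means, with correlations of 0.425 to 0.527, above 0.1 in all 4 pairs. Combinations of sample 1 or 2 of one age with sample 3 or 4 of the other were below 0. Some had to be, since deviations from an age mean sum to 0. Samples 3 and 4 of different ages correlated at 0.343 and 0.397, almost as highly as samples sharing a number, and samples 1 and 2 at 0.180 and 0.229. For samples 3 and 4, pairing by number thus cannot be told apart from likeness within the set. Samples 1 and 2 correlated more highly by number (0.503 and 0.527) than across numbers. Pairing by number was accepted by the limit of 0.1, from the data and not from the labels. The limma fit described above and the permutations of samples did not use this pairing. It enters the tests only through the replicate block and the sign-flip test, given as alternatives. No column of other samples was present (0).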

Additional observations from a re-analysis of the deposited data

How the results depend on the processing

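AT5G65360 kept its direction and its call in 19 of 20 alternatives, with log2 differences from 0.80 to 1.02 (0.94 to 1.02 without 1 sample). The exception was the exact permutation test over all rows (0.98, adjusted p = 0.0626), where 0 of 2814 rows passed while 1285 had an unadjusted p under 0.05. That count replaces 1337 calls by limma, which became 400 when samples 1 and 2 were averaged and likewise samples 3 and 4, and 1656 with the replicate block. AT1G13370 passed as deposited (−0.62) and after median centring (−0.67), ran from −0.25 to −0.05 without 1 sample, and changed sign in samples 3 and 4 alone (0.0279). The cause of the sign change was not tested. FBL17 kept its direction and passed in 11 of 19 alternatives. It was lost as deposited (−0.71) and in samples 1 and 2 alone (−0.67, limma adjusted p = 0.0669). It was also lost in averaged samples (−0.79, limma adjusted p = 0.190), though it passed in these with the pairs as a block (0.0284). By exact permutation it was lost too (−0.79, adjusted p = 0.107), and it ran from −0.99 to −0.67 without 1 sample. It was not tested where the dimmest tercile of rows was left out. With the replicate block the log2 differences were 0.98, −0.13 and −0.79 (limma adjusted p = 0.000855, 0.360 and 0.00726), and the block changed no call of the 3 genes.

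Among the ratios of 2 genes, same-numbered samples compared by a sign-flip test (replicate block) gave 1.12, 1.78 and 0.66, with an exact p of 0.125 each, the smallest that 4 pairs allow. AT5G65360 exceeded AT1G13370 by 1.01 to 1.19 and FBL17 by 1.66 to 2.00 without 1 sample. AT1G13370 exceeded FBL17 by 0.55 to 0.83 without 1 sample, by 0.10 as deposited, and missed the threshold without any 1 of the samples of 4-week-old plants (exact permutation, adjusted p = 0.0571).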
